A study of Mus musculus with 16 samples.

Results

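*Pvt1*, a long noncoding RNA gene, and 8 protein-coding genes of the Myc family and its partners were followed in the mouse cerebral cortex at E15.5. They are 9 of the 51912 genes listed in the count tables, and all 9 had counts. *Myc*, *Mycn*, *Mycl*, *Max*, *Mga*, *Mxi1*, *Mxd4* and *Mnt* were taken by name. *Pvt1* was chosen by its measured level, which was higher in the *Knl1* cKO than in ctrl, and that difference is described below without a test. The question asked was whether a higher level of *Pvt1* goes with a lower level of its neighbour *Myc*.

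Total RNA of the dissected cortex was measured by Click-seq, a ligation-free RNA-seq method with unique molecular identifiers, in 16 libraries of 15 mice. *Knl1*, named Casc5 in the labels, encodes a kinetochore scaffold protein needed for chromosome segregation, and *Trp53* encodes the transcription factor p53. The 7 ctrl mice comprised 5 that were Casc5 wild type (2, 6, S1, S3 and T3) and 2 that were Casc5 heterozygous (T4 and T5). The 4 cKO mice (5, 7, S2 and F3) were hGFAP-Cre Casc5 conditional KO, and the 4 dKO mice (T2, T8, F1 and F7) were hGFAP-Cre Casc5/Trp53 double conditional KO. The hGFAP-Cre transgene recombines floxed alleles in cortical NPCs, so cells of the dissected cortex that descend from other progenitors kept both genes. The labels do not say whether the ctrl mice carried the transgene.

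MYC, MYCN and MYCL are transcription factors that bind DNA as heterodimers with MAX, most strongly at the E-box CACGTG, and turn on genes of ribosome production, metabolism and growth. MNT, MXI1 and MXD4 compete for MAX and recruit repressor complexes to the same sites, and MGA pairs with MAX in a Polycomb-related repressor. *Pvt1* lies next to *Myc* in mouse and human, and p53 is known to induce a short *Pvt1* isoform that lowers *Myc* transcription in cis. *Mycn* is known as the main Myc paralogue of embryonic neural progenitors. The counts were per gene, so isoforms of *Pvt1* were not resolved.

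In the GENCODE annotation of GRCm38, *Myc* (ENSMUSG00000022346) spans chr15:61985391-61990374 and *Pvt1* (ENSMUSG00000097039), a lincRNA, spans chr15:62037986-62378096, both on the plus strand. The end of *Myc* and the start of *Pvt1* were 47612 bases apart. The other members lie elsewhere. *Mycn* and *Max* are on chromosome 12, *Mycl* on 4, *Mga* on 2, *Mxi1* on 19, *Mxd4* on 5 and *Mnt* on 11. Other annotated genes overlap *Pvt1*, *Max*, *Mxi1* and *Mxd4*. The pseudogene *H2afy3*, antisense within *Pvt1*, had 21 counts over the 15 mice, *Gm42846*, antisense to *Mxd4*, had 5, *Gm10197*, antisense to *Mxi1*, had 1, and the others had 0. *Gm27913* and *Gm27718* lie wholly inside *Pvt1* exons on the same strand, over 173 and 86 bases. A read that fits both genes equally is set aside as ambiguous, so a count of 0 there does not show that such reads were absent. Whether the counting used the strand is not given in the sources used here.

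Promoter sequences of 300 bases, from 250 before to 50 after the annotated start, were held in RefSeq (GRCm38.p6) for 7 of the 9 genes. *Pvt1* and *Myc* had no entry. These 7 genes had 9 promoter windows, 3 of them for alternative starts of *Mxi1*. The E-box CACGTG, which reads the same on both strands, was found in 3 of the 9 windows, those of *Max*, *Mnt* and *Mxd4*. It was found in 2346 of 32817 such windows of all genes (7.15%). The stretches of 60 bases around these matches are shown because *Max*, *Mnt* and *Mxd4* are themselves partners or antagonists of the E-box binding factors. Capitals mark CACGTG, and positions are counted from the annotated start. The match began at position −3 in *Max* (chr12:76962219-76962278, minus strand), −123 in *Mnt* (chr11:74830774-74830833, plus strand) and −219 in *Mxd4* (chr5:34187897-34187956, minus strand).
Max: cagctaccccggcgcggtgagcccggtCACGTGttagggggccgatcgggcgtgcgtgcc
Mnt: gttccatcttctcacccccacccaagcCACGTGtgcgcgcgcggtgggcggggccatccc
Mxd4: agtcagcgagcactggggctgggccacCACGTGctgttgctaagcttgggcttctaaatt

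Levels are given as CPM, a mouse's counts scaled to a common library total with TMM factors over the 15 mice. A cKO mouse held 4178461–8800987 counts in total, a dKO mouse 552186–5396803 and a ctrl mouse 399832–3266227, which puts all cKO mice above all ctrl mice in depth. All dKO mice were in batch 3, with 1 cKO mouse (F3) and 3 ctrl mice. Over the whole gene, the level of *Knl1* was 62.8 ± 13.5 CPM in ctrl (SD, n = 7), 58.2 ± 14.8 CPM in cKO (n = 4) and 49.8 ± 11.6 CPM in dKO (n = 4), and that of *Trp53* was 30.5 ± 10.6, 28.3 ± 4.26 and 25.1 ± 5.26 CPM. The ranges of the groups overlapped, and counts over a whole gene do not check the loss of its floxed exons. The defining markers of cortical excitatory neurons were present, with 6 of 6 counted in each group. Their summed level was 1505–1898 CPM in ctrl. Of 8 markers of apical progenitors, *Sox2* had 0 counts in every group, and the cause was not tested. The summed level of these 8 was 415–691 CPM in ctrl.

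*Pvt1* was higher in every cKO mouse than in every ctrl and every dKO mouse. In cKO its level was 65.8 CPM in mouse 5, 85.0 CPM in mouse 7, 68.5 CPM in S2 and 58.9 CPM in F3. In ctrl the lowest level was 23.3 CPM (S1), the median 35.0 CPM and the highest 38.6 CPM (mouse 2). In dKO the level was 31.5 CPM in T2, 45.3 CPM in T8, 33.5 CPM in F1 and 38.4 CPM in F7. The dKO values thus lay inside the ctrl range or, for T8, between the ctrl and the cKO mice. The 2 libraries of mouse S2 held 313 and 289 *Pvt1* counts, or 71.0 and 65.8 CPM without TMM.

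The mean level of *Pvt1* was 69.5 ± 11.1 CPM (SD, n = 4) in cKO, 32.5 ± 5.65 CPM (SD, n = 7) in ctrl and 37.2 ± 6.13 CPM (SD, n = 4) in dKO. The log fold change, on the log2 scale here and below, was 1.13 for cKO versus ctrl and 0.91 for cKO versus dKO. Neither is given a test, since the first chose the gene and the second rests on the same cKO mice. All dKO mice but only 1 of the 4 cKO mice were in batch 3, and the cKO versus dKO value was 0.68 with batch as a covariate, 0.72 with litter as a covariate and 0.68 in batch 3 alone. For dKO versus ctrl, which shares the ctrl mice of the first comparison, the log fold change was 0.25 (95% interval −0.11 to 0.62, FDR = 1, edgeR likelihood ratio test), and a difference was not detected.

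**Figure D1:**
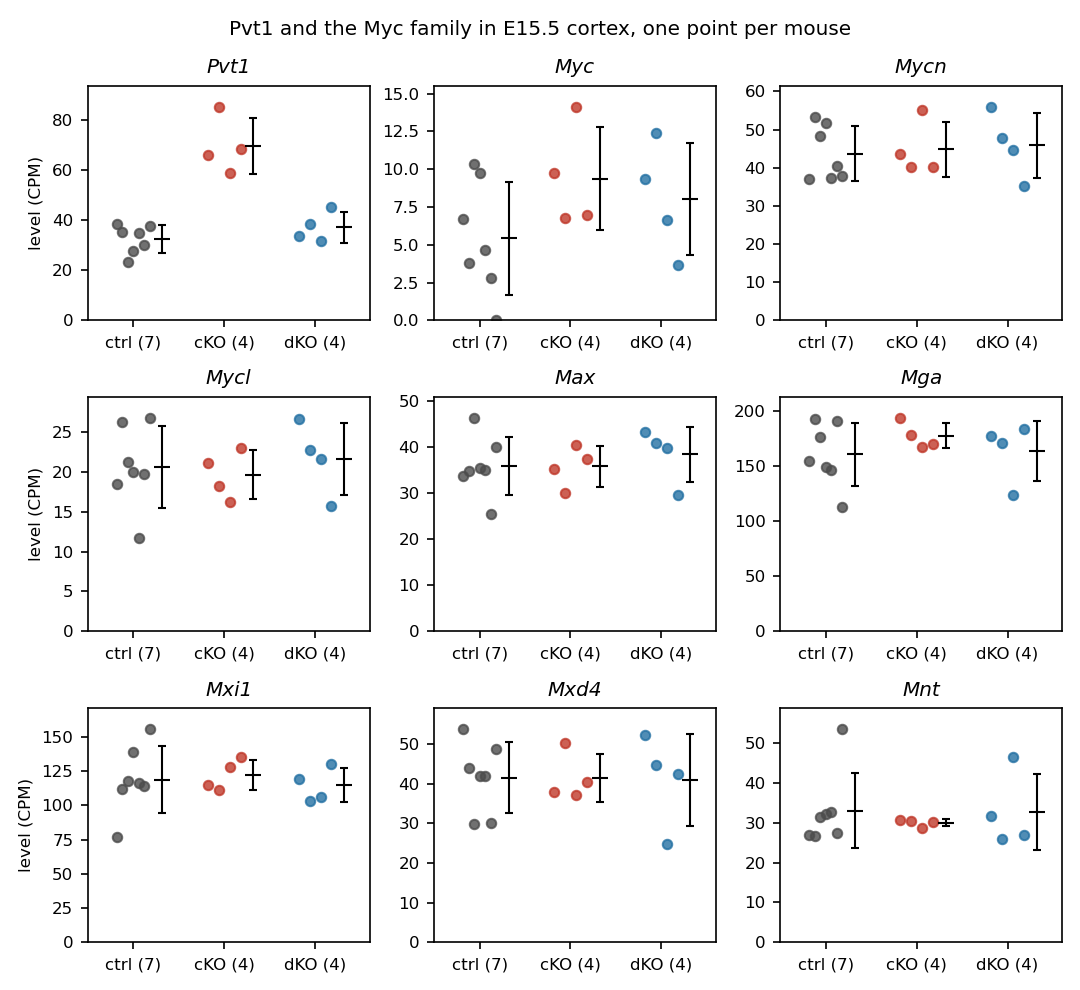
Level in CPM (vertical axes, from 0) of each of the 9 genes in 7 ctrl, 4 cKO and 4 dKO mice, 1 point per mouse, with the mean and SD as a black bar beside each group. The *Pvt1* points of cKO (58.9–85.0 CPM) lie above all others, and for each of the other 8 genes the 3 groups overlap.

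The *Pvt1* levels are listed by litter as a description. Since every cKO mouse was above every ctrl and dKO mouse, the order within litters follows and is no further support. In litter 1, cKO mice 5 and 7 had 65.8 and 85.0 CPM, against 38.6 and 35.1 CPM in ctrl mice 2 and 6. In litter 2, cKO mouse S2 had 68.5 CPM, against 23.3 and 27.7 CPM in ctrl mice S1 and S3. In litter 4, cKO mouse F3 had 58.9 CPM, against 33.5 and 38.4 CPM in dKO mice F1 and F7. Litter 3 held no cKO mouse, and its ctrl (30.1–37.8 CPM) and dKO mice (31.5 and 45.3 CPM) overlapped.

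Other measures also differed between cKO and ctrl. Every cKO mouse was deeper than every ctrl mouse. In dKO mouse F7, with 5396803 counts, *Pvt1* was at 38.4 CPM, and in cKO mice 5, 7 and F3, with 4178461–5301380 counts, it was at 58.9–85.0 CPM. The summed level of 8 interneuron markers was 2984–4334 CPM in cKO, 2025–2599 CPM in ctrl and 2170–2699 CPM in dKO, without overlap of cKO and the other groups. *Erbb4* made up most of this sum, with means of 2581 CPM in cKO, 1723 CPM in ctrl and 1763 CPM in dKO. All 8 markers had a log fold change above 0 for cKO versus ctrl. For *Gad2*, *Dlx1*, *Dlx2*, *Dlx5*, *Lhx6* and *Sp9*, however, cKO overlapped both other groups. Among genes at a mean of 5 CPM or more, cKO and ctrl did not overlap for 1.25%. Of the 8 markers, *Gad1*, an enzyme of GABA synthesis, and *Erbb4*, a neuregulin receptor, were higher in cKO than in ctrl (log fold changes of 0.56 and 0.56, edgeR FDR = 0.0408 and 0.0361). The intermediate progenitor transcription factors *Eomes* and *Neurog2* were lower in cKO than in ctrl by log fold changes of −1.13 and −1.19 (edgeR FDR = 5.06e-06 and 0.00564). Of the other markers of these progenitors, *Btg2*, *Insm1* and *Neurog1* were also lower in cKO but were not called. For dKO versus ctrl, *Eomes*, *Neurog2* and *Insm1* had log fold changes of −0.51, −0.64 and −0.62, and none was called. The summed level of the 5 intermediate progenitor markers was 79.6–155 CPM in cKO, 148–209 CPM in ctrl and 97.0–172 CPM in dKO. The 155 CPM was that of cKO mouse S2, inside the ctrl range. The part of these measures in the *Pvt1* difference was not tested. In bulk tissue, a change in the number of cells of a type and a change of RNA per cell cannot be told apart.

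*Myc*, the neighbour of *Pvt1* and the founding oncogene of the family, was scarce and varied widely among mice of each group. In cKO its level was 9.75 CPM in mouse 5, 6.75 CPM in mouse 7, 6.94 CPM in S2 and 14.1 CPM in F3. In dKO the level was 6.63 CPM in T2, 3.70 CPM in T8, 9.36 CPM in F1 and 12.4 CPM in F7. In ctrl the lowest level was 0 (T5), the median 4.67 CPM and the highest 10.3 CPM (S1). The groups overlapped in all 3 comparisons, and only F3 lay above every ctrl and dKO mouse.

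The counts behind these values were few. *Myc* had 27–62 counts per cKO mouse, 4–64 per dKO mouse and 0–19 per ctrl mouse. In ctrl mouse T5, with 417440 counts in all, the 0 counts allow a level of up to 7.19 CPM without TMM. Summed over mice, *Myc* had 59 counts in ctrl, or 6.25 CPM (exact Poisson 95% interval 4.76–8.06), 198 in cKO, or 8.52 CPM (7.37–9.79), and 103 in dKO, or 9.82 CPM (8.01–11.9). These intervals cover counting error only, and a sum gives deep mice more weight.

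A difference of *Myc* between groups was not detected. The mean level of *Myc* was 9.38 ± 3.43 CPM (SD, n = 4) in cKO, 5.44 ± 3.73 CPM (SD, n = 7) in ctrl and 8.03 ± 3.73 CPM (SD, n = 4) in dKO. The log fold change for cKO versus ctrl was 0.59 ± 0.35 (SE; 95% interval −0.09 to 1.28; edgeR FDR = 1), positive but within the spread between mice. For dKO versus ctrl it was 0.53 (−0.27 to 1.34, edgeR FDR = 1), and for cKO versus dKO, where *Pvt1* differed by 0.91, it was 0.06 (−0.60 to 0.72, edgeR FDR = 1). The last interval holds both a fall and a rise of about the size seen elsewhere, so these data do not bound *Myc* tightly between cKO and dKO. With the batch 3 mice alone, which are 1 cKO and 3 ctrl mice, the cKO versus ctrl value was 2.42. It was 0.13 when litter entered the fit (edgeR FDR = 1). With batch as a covariate it was 0.83 (edgeR unadjusted p = 0.0215, FDR = 0.841). All dKO mice but only 3 of the 7 ctrl mice were in batch 3. The dKO versus ctrl value was 1.77 with batch as a covariate (edgeR unadjusted p = 0.00836, FDR = 0.997). In batch 3 alone it was 1.76 (edgeR unadjusted p = 0.00916, FDR = 0.978), and with litter as a covariate 0.89. The size of the *Myc* difference thus depended on how batch and litter were treated.

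**Figure D2:**
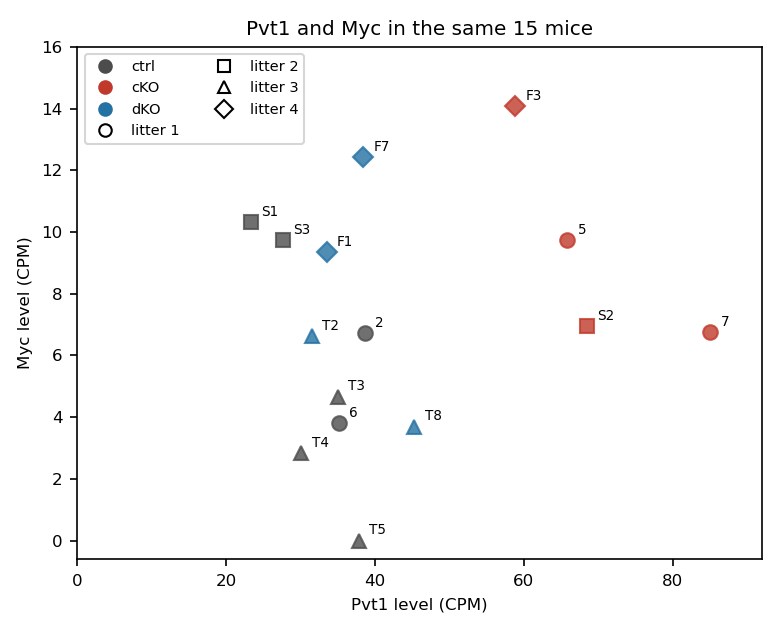
Level of *Myc* against that of *Pvt1* in the same mouse, both in CPM, for 15 mice, with the group as colour and the litter as symbol. The 4 cKO mice stand apart on the *Pvt1* axis, while their *Myc* levels (6.75–14.1 CPM) overlap those of ctrl (0–10.3 CPM) and dKO (3.70–12.4 CPM).

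*Myc* levels also differed between litters within a group. The 2 ctrl mice of litter 2 (S1 and S3) had 10.3 and 9.73 CPM, above the other 5 ctrl mice. The 3 mice of litter 4, F3, F1 and F7, had 9.36–14.1 CPM, above all 5 mice of litter 3 (0–6.63 CPM). Inside litter 1, *Myc* was 9.75 and 6.75 CPM in cKO and 6.72 and 3.80 CPM in ctrl, and inside litter 2 it was 6.94 CPM in cKO mouse S2 and 10.3 and 9.73 CPM in ctrl. The direction of the cKO and ctrl difference was thus opposite in these 2 litters. The mice of litter 3 had 399832–1023405 counts and those of litter 4 had 3519529–5396803, so litter and depth cannot be told apart between these 2 litters.

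Across mice, a relation of *Pvt1* with *Myc* was not established. The cKO mice were left out of it, because they were chosen as high in *Pvt1*. Over the 7 ctrl mice, Pearson's r of the log2 CPM was −0.57 (exact permutation p = 0.106, adjusted over 2 relations p = 0.211) and Spearman's rho was −0.54 (exact permutation p = 0.236, adjusted p = 0.418), both two-sided. Without S1 and S3, the 2 mice farthest from the median *Pvt1* level, r was −0.13, so the negative value rested on these 2 littermates. S1 was also the only mouse of batch 2. Over the 11 ctrl and dKO mice, r was −0.34 (permutation p = 0.274, adjusted p = 0.274) and rho was −0.27 (permutation p = 0.418, adjusted p = 0.418), with r = −0.23 without S1 and T8. Within litter 3, the 5 mice were too few for a correlation. T8 had the highest *Pvt1* of the 11 mice and 3.70 CPM of *Myc*, from 4 counts. Of its littermates, T3 and T2 had more *Myc* (4.67 and 6.63 CPM), and T4 and T5 had less (2.82 and 0 CPM).

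Of the Myc paralogues, *Mycn* was the most abundant per length in each mouse. Divided by the exon length of the gene, the ctrl mean was 13.3 CPM per kb for *Mycn*, 5.10 CPM per kb for *Mycl* and 2.00 CPM per kb for *Myc*. *Mycn* made up 58.7–71.1% of the summed level per length of the 3 genes over the 15 mice. The median share of *Myc* was 10.8% in ctrl, 14.6% in cKO and 12.1% in dKO, and the ranges of the groups overlapped. A gene's exon length here is the union of all its annotated exons, so a gene that uses short transcripts is placed too low.

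**Figure D3:**
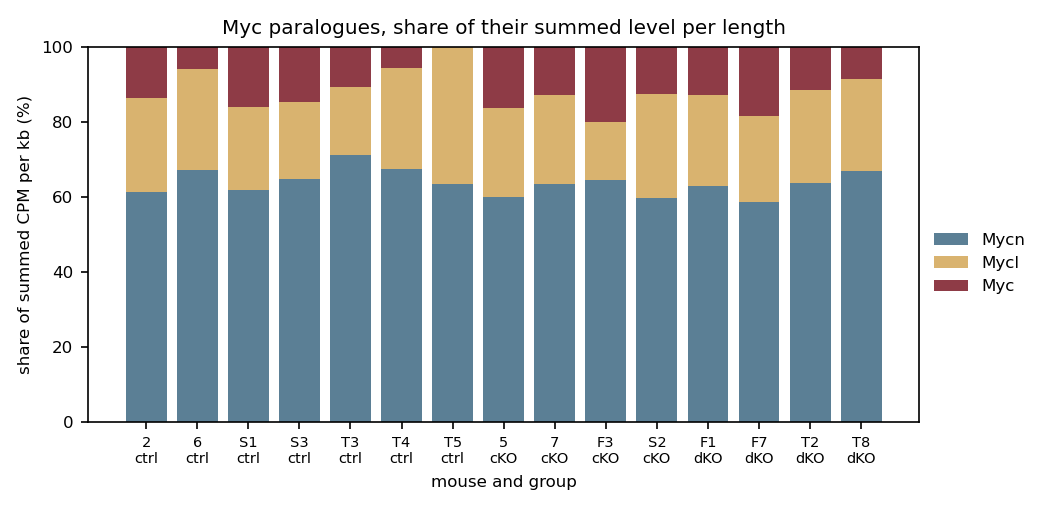
Share (%) of *Mycn*, *Mycl* and *Myc* in the sum of their levels per length (CPM per kb of exon), 1 stacked bar per mouse, ordered by group. *Mycn* takes 58.7–71.1% of each bar, and *Myc* is absent from the bar of ctrl mouse T5.

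No difference of *Mycn* between groups was detected. Its level was 43.7, 40.3, 40.2 and 55.2 CPM in cKO mice 5, 7, S2 and F3. It was 44.8, 35.1, 55.8 and 47.7 CPM in dKO mice T2, T8, F1 and F7, and 37.0–53.2 CPM in ctrl, with a median of 40.5 CPM. The 3 groups overlapped almost completely. The log fold change was −0.05 (95% interval −0.36 to 0.25) for cKO versus ctrl, 0.04 (−0.30 to 0.39) for dKO versus ctrl and −0.06 (−0.41 to 0.29) for cKO versus dKO, each with an edgeR FDR of 1. *Mycl*, a paralogue with a narrower known range of tissues, was at 16.1–23.0 CPM in cKO, 11.7–26.7 CPM in ctrl and 15.7–26.6 CPM in dKO. Its log fold change was −0.13 (−0.50 to 0.24) for cKO versus ctrl, with an edgeR FDR of 1. The sum of *Myc*, *Mycn* and *Mycl* was 73.8 ± 8.63 CPM (SD, n = 4) in cKO, 69.7 ± 11.6 CPM (SD, n = 7) in ctrl and 75.5 ± 16.0 CPM (SD, n = 4) in dKO.

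*Max*, the shared partner, also overlapped in all groups. Its level was 30.0–40.5 CPM in cKO, 25.4–46.2 CPM in ctrl and 29.6–43.2 CPM in dKO. The log fold change was −0.02 (95% interval −0.34 to 0.30) for cKO versus ctrl, 0.12 (−0.24 to 0.48) for dKO versus ctrl and −0.11 (−0.45 to 0.22) for cKO versus dKO, and each edgeR FDR was 1. Per length, *Max* had 9.94 CPM per kb in ctrl, below *Mycn*.

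For the 4 MAX partners that oppose Myc no difference was detected either. *Mga* was at 168–194 CPM in cKO, 113–193 CPM in ctrl and 124–184 CPM in dKO. *Mxi1* was at 111–135, 77.3–156 and 103–130 CPM in the same order, and *Mxd4* at 37.3–50.3, 29.9–53.8 and 24.9–52.2 CPM. *Mnt*, the most widely expressed of these repressors, was at 28.6–30.7 CPM in cKO, 26.6–53.3 CPM in ctrl and 26.0–46.4 CPM in dKO. Its highest values were those of ctrl mouse T5 and dKO mouse T2, which had 24 and 28 *Mnt* counts. Over these 4 genes and the 3 comparisons the log fold changes were between −0.07 and 0.11, each with an edgeR FDR of 1. The widest of the 12 intervals, that of *Mnt* for dKO versus ctrl, ran from −0.42 to 0.37.

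**Figure D4:**
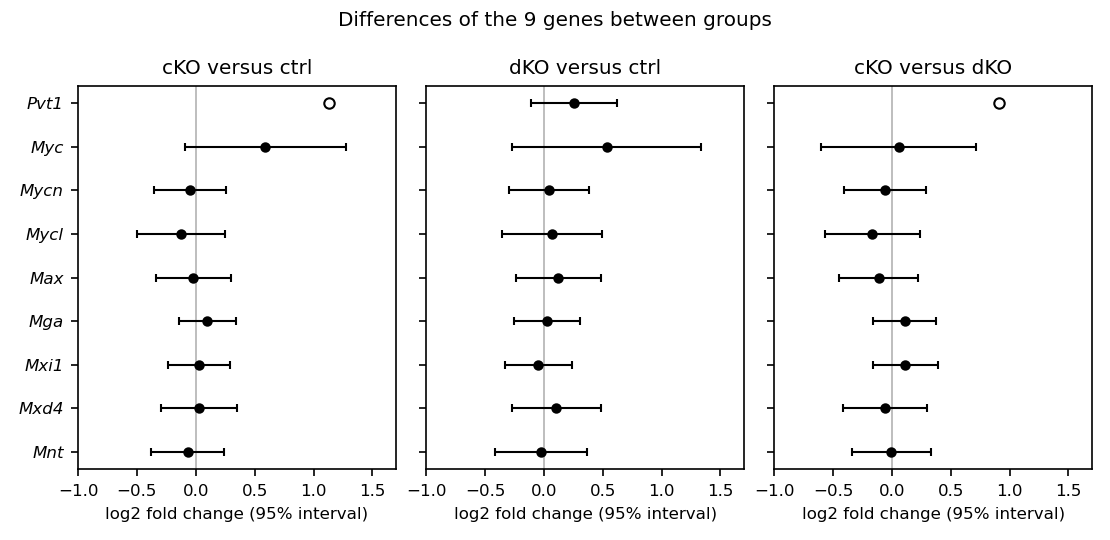
Log2 fold change (horizontal axis) of the 9 genes in the 3 comparisons (one panel each), with 95% intervals from the SE of the edgeR fit. The open points are *Pvt1* in the comparisons with the cKO mice that chose it (1.13 and 0.91), drawn without an interval, and every interval drawn holds 0.

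*Pvt1* is left out of the counts for the comparisons with cKO, because its level in the cKO mice chose it. Of the other 8 genes, 0 passed an FDR below 0.05 in cKO versus ctrl, where 0.16% of all 51912 genes passed, and 0 in cKO versus dKO, where 0.052% passed. In dKO versus ctrl 0 of all 9 passed, against 0.0501%. The count of the 8 genes was 0 by each of edgeR's likelihood ratio test, its quasi-likelihood test and DESeq2. In these fits, which had no covariates, 0 had an unadjusted p under 0.05 by any of the 3. Groups did not overlap for 0 of the 8 genes in any comparison. Among the 10855 genes at a mean of 5 CPM or more, groups did not overlap for 1.25% in cKO versus ctrl, 3.88% in cKO versus dKO and 0.673% in dKO versus ctrl. A count of 0 of 8 is near these backgrounds and is no result about the 8 genes.

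The median log fold change of the 9 genes was 0.03 for cKO versus ctrl, 0.07 for dKO versus ctrl and −0.01 for cKO versus dKO. The medians over all genes at 5 CPM or more were 0.04, 0.02 and 0.05.

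In ctrl, the order of levels per length was *Mxi1* (17.4 CPM per kb), *Mycn* (13.3), *Mga* (10.5), *Max* (9.94), *Mnt* (7.12), *Mycl* (5.10), *Mxd4* (4.89), *Pvt1* (4.65) and *Myc* (2.00). Some neighbours in this order could not be separated. *Mga* was above *Max* in 3 of 7 ctrl mice, *Mycl* above *Mxd4* in 4 and *Mxd4* above *Pvt1* in 5. *Mxi1* was above *Mycn* in 7 of 7. In cKO, *Pvt1* stood at 9.94 ± 1.58 CPM per kb (SD, n = 4), against 3.45 ± 1.26 CPM per kb for *Myc*.

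*Mxd1* and *Mxd3* encode further MAX-binding repressors, MLX is the partner of the glucose-sensing factors encoded by *Mlxip* and *Mlxipl*, and 0 of these 5 genes passed an FDR below 0.05 in any comparison by edgeR's likelihood ratio test, its quasi-likelihood test or DESeq2. *Mlxip*, the most abundant of them in CPM, was at 65.4–81.3 CPM in cKO, 57.8–83.5 CPM in ctrl and 64.7–83.2 CPM in dKO. *Mxd1* was at 29.0–43.0, 25.5–39.7 and 30.9–46.4 CPM, *Mlx* at 9.90–13.2, 4.67–16.8 and 8.29–16.6 CPM and *Mxd3* at 4.55–8.99, 0–9.34 and 3.30–8.45 CPM. *Mlxipl* had an unadjusted p under 0.05 by edgeR's likelihood ratio test in dKO versus ctrl and in cKO versus dKO, at 0–10 counts per mouse. Its groups of cKO (0.91–1.42 CPM) and dKO (0–0.60 CPM) did not overlap, but ctrl spanned 0–8.47 CPM.

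Genes that MYC is known to turn on were examined next. A list of 40 such genes, among them nucleolar factors, nucleotide synthesis enzymes and chaperones, was written from general knowledge. By edgeR's likelihood ratio test 0 of 40 passed an FDR below 0.05 in any comparison, and an unadjusted p under 0.05 was found for 2 genes in cKO versus ctrl (both higher), 7 in dKO versus ctrl (6 higher and 1 lower) and 0 in cKO versus dKO. Of all genes at 5 CPM or more, 10.4%, 5.73% and 4.06% had such a p in these comparisons. DESeq2 also called 0 in each. The quasi-likelihood test called 1, *Ncl* (nucleolin, a factor of ribosomal RNA processing), for dKO versus ctrl, with a log fold change of 0.46 (FDR = 0.0304), and it is named here after its values were seen. *Ncl* was at 176–302 CPM in dKO, 100–227 CPM in ctrl and 185–308 CPM in cKO, so the groups overlapped, and by the likelihood ratio test its FDR was 0.950.

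The median log fold change of the 40 genes was −0.05 for cKO versus ctrl, 0.05 for dKO versus ctrl and −0.01 for cKO versus dKO, beside 0.04, 0.02 and 0.05 over all genes at 5 CPM or more. In cKO versus ctrl 16 of the 40 were above 0, against 58.5% of those genes. In dKO versus ctrl 22 were above 0, against 53.6%, and in cKO versus dKO 18, against 61.9%. The summed level of the list was 1641–1888 CPM in cKO, 1516–2044 CPM in ctrl and 1680–2043 CPM in dKO.

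**Figure D5:**
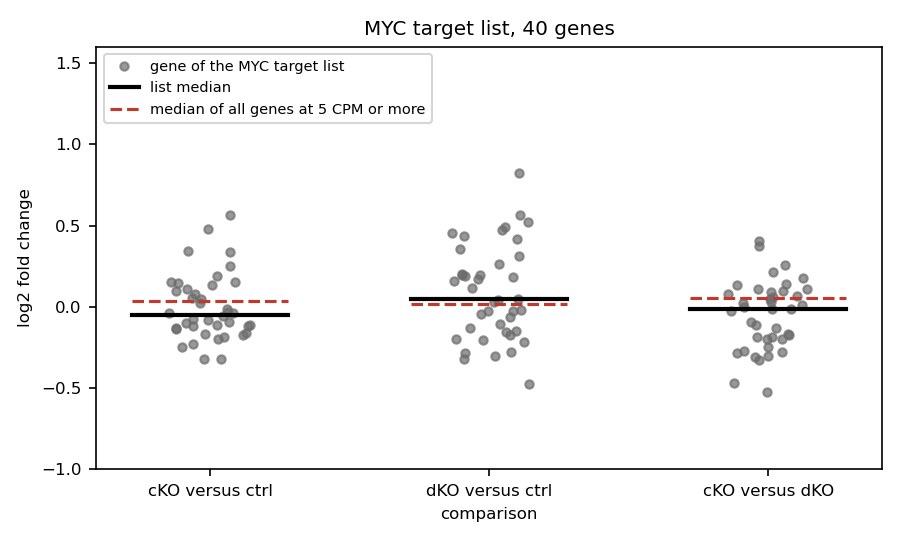
Log2 fold change (vertical axis) of 40 known MYC target genes in each comparison, 1 point per gene, with the list median (black) and the median of all genes at 5 CPM or more (dashed red). The list medians (−0.05, 0.05 and −0.01) lie within 0.10 of the dashed lines, and single genes spread from −0.52 to 0.82.

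Around *Pvt1*, no other gene was called. Of the 31 other genes within 2 Mb of its start or end, 14 had a count and 4 were at 5 CPM or more, and 0 passed an FDR below 0.05 in any comparison by any of the 3 tests. By edgeR's likelihood ratio test an unadjusted p under 0.05 was found for 1 in cKO versus ctrl (*H2afy3*, lower), 0 in dKO versus ctrl and 3 in cKO versus dKO (*9930014A18Rik*, *Gm20717* and *Gsdmcl-ps*, all lower), against 4.7%, 3.32% and 4.16% of all 51912 genes. These 4 had 2–124 counts each over the 15 mice. Apart from *Myc*, the 3 at 5 CPM or more were *Fam84b*, *Fam49b* and *Asap1*, named like those 4 after their values were seen. *Fam49b*, a negative regulator of Rac signalling, had a log fold change of 0.11 (SE 0.11, edgeR FDR = 1) for cKO versus ctrl. *Asap1*, an ARF GTPase-activating protein, had 0.17 (SE 0.11, edgeR FDR = 1), and *Fam84b* had 0.13 (SE 0.25, edgeR FDR = 1).

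Finally, the genes with the most similar pattern over the 15 mice were sought among 7077 genes with a mean of at least 20 CPM, by Pearson's r of the log2 CPM. For *Pvt1* they were *Flrt2* (r = 0.93), *Ano3* (0.89), *Thsd7a* (0.81), *Dscaml1* (0.80) and *Enox1* (0.79). As the 4 cKO mice form a cluster in *Pvt1*, such values mostly order genes by their level in cKO. *Flrt2*, a cell-surface guidance molecule, was at 369–464 CPM in cKO, 286–361 CPM in ctrl and 298–364 CPM in dKO. *Ano3*, of the anoctamin family, was at 46.8–66.8, 11.3–33.3 and 18.5–26.0 CPM. In both, every cKO mouse was above every other mouse, for *Flrt2* by a narrow gap. The same held for *Enox1* (1216 CPM or more in cKO, at most 1142 CPM in the others), but not for *Thsd7a* or *Dscaml1*. Among genes at a mean of 5 CPM or more, groups did not overlap for 1.25% in cKO versus ctrl and 3.88% in cKO versus dKO. As these genes were picked by likeness to *Pvt1*, such gaps came with the choice and are no further result.

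Of the 8 members of the Myc family and its partners, 7 reached the mean of 20 CPM, and none of these came near the top of that order. Their r with *Pvt1* was between −0.24 (*Max*) and 0.32 (*Mxd4*). *Myc* itself did not reach that mean and was not ranked. Its r with *Pvt1* over the 15 mice was 0.12 (Spearman's rho 0.11), which includes the cKO mice chosen as high in *Pvt1*. The 5 genes most like *Myc* were *Rtf1*, *Elovl2*, *Zfp948*, *Rps7* and *Brk1* (r between 0.90 and 0.91), and each had its lowest level in ctrl mouse T5, where *Myc* had 0 counts. Those most like *Mycn* were *Eid1*, *Zfp553*, *Mir6236*, *Rps9* and *Nudc* (r between 0.82 and 0.86), each highest in dKO mouse F1. The mice share depth as well. For *Myc*, with 0–19 counts per ctrl mouse, a correlation with depth was not computed. Over the same 15 mice the r of the log2 CPM with the log10 of the total counts was 0.53 for *Pvt1*, 0.53 for *Mycn* and between 0.35 and 0.69 for these 15 genes.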

How the data were processed

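RNA-seq was performed on E15.5 cortices of 15 mice in 16 libraries. The authors trimmed reads with cutadapt 1.13, aligned them with STAR 2.5.2a to GRCm38/mm10, collapsed PCR copies with UMI-tools 0.5.3 and counted genes with HTSeq 0.6.1p1, per the paper and the submitters' processing notes. The deposited values are raw counts of deduplicated reads per gene. The annotation release and strand setting are not given in the sources used here. The 5 HTSeq summary lines were left out. Those for no feature, ambiguous and not uniquely aligned reads together made up 21.6–38.7% of their sum with the gene counts. Symbols came from GENCODE M21, which matched 51719 of 51912 identifiers. Libraries S2 and S2b were summed into 1 mouse.

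Each comparison was fitted on its 2 groups with edgeR 4.0.16 in R 4.3.3 (TMM, estimateDisp, glmFit, glmLRT, no covariates), with Benjamini–Hochberg FDR over all listed genes. The intervals are 95% intervals from an SE computed at the fitted means and dispersion. They take the dispersion as known and do not come from the likelihood ratio test. Log2 CPM used a prior count of 2. The fit was tested on simulated counts with the same dispersion for every gene and no batch or litter effect. Known changes were planted only in genes more abundant than *Myc*, so that test covers neither *Myc* nor batch. Depth was 399832 to 8800987 counts per mouse, so that 3 counts were worth 7.50 to 0.341 CPM without TMM, for counting error only.

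Named were all 9 members, 5 further network genes, at most 5 genes per list at an FDR below 0.05, and the 5 genes most like *Pvt1*, *Myc* and *Mycn*. Overlapping genes, neighbours of *Pvt1*, cell type markers and *Ncl* were named outside this rule, after their values were seen. Members and lists were chosen with earlier results of these data known. Whether mice of a group are independent beyond their litters is not stated. Alternatives were edgeR's quasi-likelihood test, DESeq2 1.42.0, RLE factors, filterByExpr, all groups in 1 fit, batch or litter as covariates, wild-type ctrl mice, single batches, single S2 libraries and leaving out each mouse. Mice with at least 1000000 counts, and batch 3 alone for cKO versus ctrl, were added after seeing the data.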

Additional observations from a re-analysis of the deposited data

Results flagged for a closer look

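*Mnt* in ctrl mouse T5 stood apart from the other 6 ctrl mice. Its level was 53.3 CPM, from 24 counts, against 26.6–32.7 CPM in the others, and the gap to the next mouse was 0.772 of the group's whole range. This was 1 such case among the 27 groups examined (9 genes in 3 groups). Chance gives such a case in about 1 of 20 groups, so 1 case is near chance. T5 was among the shallowest mice, with 417440 counts. Without T5, the *Mnt* log fold change for cKO versus ctrl went from −0.07 to 0.04, with an edgeR FDR of 1 in both.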

How the results depend on the processing

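Depth and batch were limits. *Myc* rested on few counts in ctrl, and all dKO mice were in batch 3. Over the alternatives, *Pvt1* kept its direction in every comparison. Its call at an FDR below 0.05 in the comparisons with cKO came with the choice of the gene and is no support. For cKO versus dKO it was lost with batch as a covariate (0.68), with litter as a covariate (0.72), in batch 3 alone (0.68) and without cKO mouse 7 (0.81), so that 0 of 9 members were called there. For cKO versus ctrl, batch 3 alone (added after seeing the data) gave 0.80 and 0 members. The cause was not tested, but batch 3 alone leaves 1 cKO mouse, which is assumed to vary like the other group. *Myc* was positive in all 24 alternatives for cKO versus ctrl (0.13 to 2.42, FDR 0.237 to 1) and all 20 for dKO versus ctrl (0.22 to 1.77, FDR 0.978 to 1), and it was negative in 4 of 19 for cKO versus dKO.

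Leaving out 1 mouse gave 17–373 genes at an FDR below 0.05 for cKO versus ctrl (17 without cKO mouse 5, 373 without S2, against 83), 17–59 for dKO versus ctrl (17 without F7, 59 without T8, against 26) and 6–179 for cKO versus dKO (6 without cKO mouse 7, 179 without F1, against 27). The members called were 1, 0 and 0–1. The quasi-likelihood test called 352, 113 and 184 genes and DESeq2 144, 3 and 11. The filterByExpr genes gave 138, 14 and 14, and all groups in 1 fit 49, 14 and 14. Batch as a covariate gave 17 for dKO versus ctrl and 3 for cKO versus dKO. Wild-type ctrl mice gave 16 and 17 for the ctrl comparisons. For cKO versus ctrl, batch 1 alone gave 13 and batch 3 alone 203, and for cKO versus dKO batch 3 alone gave 1. Mice with at least 1000000 counts (added after seeing the data) gave 52 for cKO versus ctrl and 62 for cKO versus dKO.

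Small differences changed sign, all at an FDR above 0.05. For cKO versus ctrl, *Mxi1* and *Mxd4* became −0.017 and −0.019 with DESeq2, −0.018 and −0.017 with RLE factors and −0.021 and −0.020 with filterByExpr. *Mxd4* became −0.0086 with library S2b alone, −0.069 in batch 1, −0.058 in batch 3 and −0.080 with batch as a covariate. *Max* became 0.082 with batch as a covariate, 0.33 in batch 3 and 0.0023 with mice of at least 1000000 counts, and *Mycn* became 0.50 in batch 3. *Mnt* became 0.093 in batch 1, 0.052 with litter, 0.023 with wild-type ctrl mice and 0.039 with mice of at least 1000000 counts. For dKO versus ctrl, litter gave *Mycl* −0.11 and *Mxd4* −0.10, wild-type ctrl mice gave *Mycn* −0.017, *Mxi1* 0.0011 and *Mnt* 0.043, and mice of at least 1000000 counts gave *Mycn* −0.042 and *Mga* −0.0056. For cKO versus dKO, *Mycn* became 0.24 and *Max* 0.062 with batch, *Mycn* 0.25 and *Max* 0.067 in batch 3, *Mycn* 0.12, *Mga* −0.033 and *Mnt* 0.019 with litter, *Mnt* 0.037 with library S2 alone, and *Myc* −0.013 and *Mnt* 0.090 with mice of at least 1000000 counts.

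Leaving out 1 mouse changed further signs. For cKO versus ctrl the ranges were −0.089 to 0.076 (*Max*), −0.14 to 0.039 (*Mnt*), −0.056 to 0.10 (*Mxd4*), −0.023 to 0.10 (*Mxi1*) and −0.17 to 0.018 (*Mycn*). For cKO versus dKO they were −0.13 to 0.090 (*Mnt*), −0.18 to 0.059 (*Mxd4*), −0.23 to 0.38 (*Myc*) and −0.18 to 0.045 (*Mycn*). For dKO versus ctrl they were −0.034 to 0.10 (*Mga*), −0.15 to 0.10 (*Mnt*), −0.034 to 0.22 (*Mxd4*), −0.11 to 0.020 (*Mxi1*), −0.063 to 0.18 (*Mycl*) and −0.084 to 0.13 (*Mycn*). The correlation of *Pvt1* with *Myc* stayed negative under the other prior count, without TMM and without the farthest mice, between −0.61 and −0.13 in ctrl and between −0.45 and −0.23 in ctrl and dKO. The labels share no replicate number between groups, but litters held mice of 2 groups, and litter as a covariate gave 120 genes for cKO versus ctrl, 23 for cKO versus dKO and 4 for dKO versus ctrl.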
